A study of Homo sapiens with 4 samples.

Results

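The genes described here are 39 interferon-stimulated genes, chosen by name from a list of well-known members of the type I interferon response and found as 1 row each among the 22361 genes and loci of the deposited table. They were measured in Jurkat, an established human T-cell leukaemia line, in 2 libraries of cells that carried an shRNA against the long non-coding RNA ARIEL and in 2 libraries of control cells that carried an shRNA against GFP. Cells of both groups were infected with lentivirus, selected with 0.7 µg/ml puromycin for no less than 36 h and collected 72 h after infection, so the controls share the virus and the drug. How many different shRNAs against ARIEL were used is not given in the sources used here, and no label says that replicates came from separate cultures, so the p-values speak only of the spread among these 4 samples, which may be technical. The comparison asks how these genes differ when ARIEL is depleted.

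Interferons are secreted proteins that bind receptors at the cell surface. Through the kinases JAK1 and TYK2, the type I receptor, made of IFNAR1 and IFNAR2, leads to a complex with STAT2 and IRF9 that binds a GAAA repeat, the interferon-stimulated response element, before its target genes. The products of these genes sense foreign RNA, degrade or sequester it, block entry and release of viruses, and adjust the signal itself. Many of them are expressed at a basal level without added interferon.

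Values are regularised log (rlog) expression, the authors' own normalisation on a log2 scale, which pulls noisy values towards the gene's mean. A difference on it thus understates the change. The gap between replicates is narrowed as well, so the SE of a gene at a low level can be too small. Differences are ARIEL shRNA minus control shRNA, with the standard error (SE) of limma, and a gene is called at an adjusted p under 0.05 over all 14601 genes tested (Benjamini-Hochberg). Fold changes, where given, come from the authors' deposited table. Read counts are not part of it, so depth is unknown and the precision of low values cannot be given. XLOC_005968 on chromosome 10, which from background knowledge of the study is ARIEL, had 12.02 and 11.91 with control shRNA, against 10.58 and 10.55 with ARIEL shRNA. All 12 listed markers of T cells and their leukaemias had mean rlog values of at least 11.32. They include TAL1, the factor that defines many such leukaemias. Of the 12, 5 were lower and 3 higher with ARIEL shRNA, beside 22.4% and 22.1% of all genes tested. TAL1 was among the lower ones (-0.23 ± 0.03, SE; limma, adjusted p = 1.31e-11). MS4A1, a B-cell marker, and CSF1R, a macrophage marker, were listed at 0 in every library. Among the 13 B-cell and myeloid markers only CD79A, which was higher in the ARIEL shRNA libraries, and CD1C had a mean rlog of at least 10.

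The interferon-stimulated genes did not move as a block. Of 37 members tested, 17 were lower with ARIEL shRNA (45.9%, against 22.4% of all genes tested), 9 were higher (24.3%, against 22.1%) and 11 were not called. The share that was higher was thus close to that of all genes and is no result about these members. RSAD2, XAF1, IFIT1, IFIT2, IFIT3, SAMD9 and SAMD9L were among those that fell, and IFITM1, BST2, ISG15 and OAS2 among those that rose. The median difference was -0.07, beside 0.0001 over all genes tested, and the median size without regard to sign was 0.14, beside 0.07. Called either way were 70.3% of the members and 44.4% of all genes. In these bulk libraries, fewer cells that express a gene and less RNA per cell cannot be told apart. With the replicate number as a block, 9 members were again higher and 17 lower, beside 25.5% and 25.4% of all genes (50.9% called either way). Libraries of the 2 groups did not overlap in 33 members (89.2%, against 70.7% of all genes tested), including all 26 called ones. In each of these 26 the difference exceeded the gap between replicates in both groups. The calls were made on the same values, so this is no separate support. Its share over all called genes is not given here, so it is no result about the members.

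MX1, which encodes a GTPase that blocks many RNA viruses, and IFI44L were not tested. MX1 had rlog values from 2.98 to 3.0 and IFI44L from 0.56 to 0.57, under the minimum of log2 of 10, and in neither did the groups separate. These calls rest on a spread shared between genes of similar level. When every gene was left with its own variance (2 residual degrees of freedom), limma called 0 members and 0.0% of all genes, with an unadjusted p under 0.05 in 17 members and in 31.2% of all genes. For a single gene an exact permutation test of 2 against 2 libraries cannot go below p = 0.333.

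**Figure D1:**
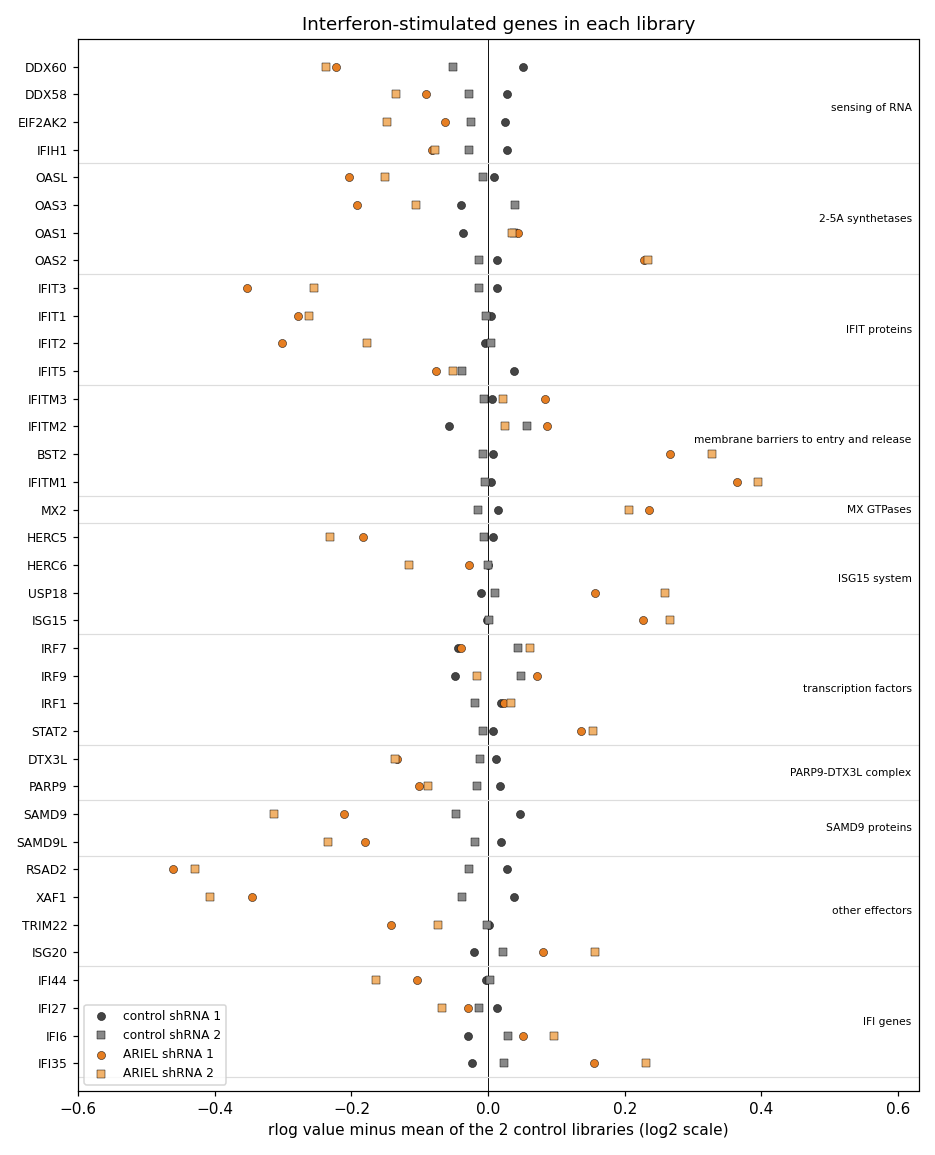
Each row is 1 of the 37 tested members, grouped by role, and each point is 1 library: its rlog value minus the mean of the 2 control libraries (x axis, log2 scale). The ARIEL shRNA points of RSAD2, XAF1, IFIT1, IFIT2 and IFIT3 lie to the left and those of IFITM1, BST2 and ISG15 to the right of both control points.

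The promoters of members in both directions hold the same response element letters. RefSeq start sites (GRCh38.p14) were matched for 31 members, and GAAA, any 2 bases and GAAA again were searched from 250 bases before to 50 after each start. No start was matched for OAS2, MX2, USP18, IFIT2, OASL, IFITM2, TRIM22 and IRF7, so their promoters were not searched. OAS2, MX2 and USP18 rose by more than ISG20 and are missing from the sites below for that reason. Both strands were searched, so that on the other strand a match reads TTTC, any 2 bases and TTTC, and matches may overlap. Of these 31 genes, 22 (71.0%) held at least 1 match, against 3.96% of 10345 tested genes with a promoter in the same table. Per window the shares were 66.7% and 2.92%. The 31 include 2 members that were not tested, MX1 and IFI44L, both with a match. Over all 27305 genes with a promoter, tested or not, 4.38% held a match. Matches were found in 11 of 14 lower, 4 of 6 higher and 5 of 9 uncalled members. XAF1, SAMD9L and DDX58 fell, and IFI35 and STAT2 rose, with no match to these letters in their windows. A match is a description of the letters and no evidence that a factor binds there. The sites below are the matches nearest before a start in the 4 lower and 4 higher members with the largest differences among those with a match, shown so that both directions can be compared; capitals mark the match, and each is read 5′ to 3′ on the strand of its gene.
RSAD2, lower, chr2:6877622-6877651, plus strand: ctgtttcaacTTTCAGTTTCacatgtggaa
IFIT3, lower, chr10:89332468-89332497, plus strand: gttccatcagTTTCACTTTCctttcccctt
IFIT1, lower, chr10:89392510-89392539, plus strand: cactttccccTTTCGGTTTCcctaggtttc
SAMD9, lower, chr7:93118096-93118125, minus strand: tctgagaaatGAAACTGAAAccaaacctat
IFITM1, higher, chr11:314024-314053, plus strand: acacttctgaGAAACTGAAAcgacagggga
BST2, higher, chr19:17405735-17405764, minus strand: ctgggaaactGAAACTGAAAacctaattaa
ISG15, higher, chr1:1013380-1013409, plus strand: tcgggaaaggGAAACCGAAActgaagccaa
ISG20, higher, chr15:88638937-88638966, plus strand: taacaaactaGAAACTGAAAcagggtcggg
The 10 letters GAAACTGAAA, read on either strand (TTTCAGTTTC on the other), are found in the windows of the lower members RSAD2, IFIT3, SAMD9, OAS3, DDX60, DTX3L, PARP9 and IFI44, of the higher members IFITM1, BST2 and ISG20, and of IFIT5, which was not called.

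PARP9 and DTX3L, whose products form a complex that modifies histones and viral proteins, lie head to head on chromosome 3, and 1 match lies within the promoter window of both. It is shown once on each strand.
DTX3L, chr3:122564322-122564351, plus strand: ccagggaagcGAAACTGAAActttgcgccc
PARP9, chr3:122564322-122564351, minus strand: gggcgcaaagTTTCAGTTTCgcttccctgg
The match begins 6 bases before the start of DTX3L and 41 bases before a start of PARP9. DTX3L had 12.80 and 12.77 with control shRNA, against 12.65 and 12.65 with ARIEL shRNA (-0.13 ± 0.03, SE; limma, adjusted p = 0.000404). PARP9 had 12.09 and 12.06 against 11.98 and 11.99, a difference of -0.09 ± 0.04 (limma, adjusted p = 0.0257). In both genes the 2 ARIEL shRNA libraries lay below the controls. The call of PARP9 was lost without any of control shRNA replicate 1 (limma, adjusted p = 0.138), ARIEL shRNA replicate 1 (0.156) and ARIEL shRNA replicate 2 (0.107), and with the GC and length trend described further on removed (-0.042; adjusted p = 0.240). Their exons overlap on opposite strands, and whether counting used the strand is not given in the sources used here.

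Among sensors of RNA, 3 of 4 fell and none rose, beside 22.4% of all genes lower. With the trend of expression with GC content and length removed, as described further on, DDX60 alone of the 4 was called (-0.15), and DDX58 (-0.056; limma, adjusted p = 0.147) and EIF2AK2 (-0.021; adjusted p = 0.569) were not. DDX60, a helicase that takes part in sensing viral RNA, had 12.40 and 12.29 in control and 12.12 and 12.11 in ARIEL shRNA libraries (-0.23 ± 0.04, SE; limma, adjusted p = 2.33e-09). It was 1.34-fold lower in the authors' deposited table. DDX58, which encodes the sensor RIG-I, had 11.75 and 11.69 against 11.63 and 11.59 (-0.11 ± 0.04; adjusted p = 0.0104), and EIF2AK2, the double-stranded RNA kinase PKR that stops translation, had 12.36 and 12.31 against 12.27 and 12.18 (-0.11 ± 0.04; adjusted p = 0.00959). The groups did not overlap in any of these. IFIH1, the sensor MDA5, had 10.16 and 10.11 against 10.06 and 10.06, a difference of -0.08 ± 0.05 that was not called (limma, adjusted p = 0.155). The calls of DDX58 and EIF2AK2 were lost without control shRNA replicate 1 (limma, adjusted p = 0.121 and 0.112) and without ARIEL shRNA replicate 2 (0.181 and 0.346).

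The oligoadenylate synthetases, which make the second messenger that switches on RNase L, split within 1 gene cluster. OAS1, OAS2 and OAS3 are neighbours on chromosome 12. OAS2 had 10.78 and 10.75 in control and 10.993 and 10.998 in ARIEL shRNA libraries, a rise of 0.23 ± 0.04 (SE; limma, adjusted p = 5.21e-07). OAS3 had 11.91 and 11.99 against 11.76 and 11.85, a difference of -0.15 ± 0.04 (limma, adjusted p = 0.000316). The 2 groups lay apart in both, in opposite directions. OAS1 had 7.65 and 7.73 against 7.73 and 7.73, overlapped and was not called (adjusted p = 0.502). The authors' deposited table has OAS2 1.36-fold higher and OAS3 1.21-fold lower. OASL, a relative without synthetase activity elsewhere on chromosome 12, had 8.34 and 8.33 against 8.13 and 8.18 (-0.18 ± 0.05; adjusted p = 0.000766). The fall of OAS3 was not called without ARIEL shRNA replicate 1 (limma, adjusted p = 0.0832).

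The IFIT genes, whose products bind viral RNA with foreign 5′ ends and block its translation, were lower in 3 of 4 cases, and none was higher, beside 22.4% of all genes lower and 22.1% higher. IFIT3 had 8.92 and 8.89 in control and 8.55 and 8.65 in ARIEL shRNA libraries, a difference of -0.30 ± 0.05 (SE; limma, adjusted p = 4.21e-09). IFIT1 had 9.71 and 9.70 against 9.43 and 9.45 (-0.27 ± 0.05; adjusted p = 1.78e-07). IFIT2 had 9.79 and 9.80 against 9.50 and 9.62 (-0.24 ± 0.05; adjusted p = 3.82e-06). Control replicates of these genes lay close together, and every ARIEL shRNA value was below them. The authors' deposited table has IFIT3 1.65-fold, IFIT1 just under 1.5-fold and IFIT2 1.41-fold lower. IFIT5, the fourth gene of the cluster on chromosome 10, had 11.93 and 11.86 against 11.82 and 11.84 and was not called (-0.06 ± 0.04; adjusted p = 0.156). IFIT2 shares exon sequence with another annotated gene on the same strand, so its reads may not all be its own.

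The other genes with large falls were RSAD2 and XAF1, which had the lowest differences of all 37 tested members. RSAD2 encodes viperin, a radical SAM enzyme that makes a chain-terminating nucleotide. It had 11.12 and 11.07 in control and 10.63 and 10.67 in ARIEL shRNA libraries, a difference of -0.44 ± 0.04 (SE; limma, adjusted p = 1.22e-23), and was 1.82-fold lower in the authors' deposited table. XAF1, a pro-apoptotic antagonist of the inhibitor XIAP, had 11.37 and 11.29 against 10.98 and 10.92 (-0.38 ± 0.04; adjusted p = 2.61e-18; 1.64-fold lower in the authors' deposited table). For both, the gap between groups was several times the gap between replicates. TRIM22, an antiviral ubiquitin ligase, had 5.75 and 5.74 against 5.60 and 5.67 (-0.11 ± 0.03; adjusted p = 0.00440), and was not called in the authors' deposited table (adjusted p = 0.0687) or by limma without ARIEL shRNA replicate 1 (0.168) or with the GC and length trend removed (0.0851). ISG20, an RNA exonuclease, went the other way, with 10.11 and 10.15 against 10.21 and 10.29 (0.12 ± 0.05; adjusted p = 0.0257). Its call was not made in the authors' deposited table (adjusted p = 0.0569), nor by limma without control shRNA replicate 1 (0.135) or ARIEL shRNA replicate 2 (0.329).

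SAMD9 and its neighbour SAMD9L on chromosome 7, which restrict poxviruses and slow cell growth, both fell. SAMD9 had 13.22 and 13.12 in control and 12.96 and 12.86 in ARIEL shRNA libraries (-0.26 ± 0.03, SE; limma, adjusted p = 1.12e-13). SAMD9L had 11.01 and 10.97 against 10.81 and 10.75 (-0.21 ± 0.04; adjusted p = 7.53e-06). The lower control value stood above the higher ARIEL shRNA value in each. The authors' deposited table has SAMD9 1.38-fold and SAMD9L 1.32-fold lower.

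Among proteins that act at membranes, 2 of 4 rose and none fell, beside 22.1% of all genes higher. IFITM1, which hinders fusion of viruses with the cell surface, had the highest difference of the tested members. It had 10.82 and 10.81 in control and 11.18 and 11.21 in ARIEL shRNA libraries, a rise of 0.38 ± 0.04 (SE; limma, adjusted p = 5.63e-18), and was 1.66-fold higher in the authors' deposited table. BST2, or tetherin, which holds budding virus at the cell surface, had 13.09 and 13.08 against 13.35 and 13.41 (0.30 ± 0.03; adjusted p = 1.04e-17; 1.45-fold higher in the authors' deposited table). In these 2 genes the control replicates were nearly equal and both ARIEL shRNA libraries were higher. IFITM2 (8.90 and 9.02 against 9.04 and 8.98) and IFITM3 (6.99 and 6.97 against 7.06 and 7.0) were not called (adjusted p = 0.369 and 0.313). The IFITM genes are close paralogues beside each other on chromosome 11, and how counting treated reads that fit more than 1 of them is not given in the sources used here.

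ISG15, a ubiquitin-like protein that is attached to other proteins, rose together with the protease that removes it, while the ligase that attaches it fell. ISG15 had 12.93 and 12.94 in control and 13.16 and 13.20 in ARIEL shRNA libraries (0.25 ± 0.03, SE; limma, adjusted p = 3.37e-12). USP18, which removes ISG15 and also holds back signalling at IFNAR2, had 11.56 and 11.58 against 11.72 and 11.83 (0.21 ± 0.04; adjusted p = 6.24e-07). HERC5, the main ISG15 ligase, had 11.73 and 11.71 against 11.54 and 11.49 (-0.21 ± 0.04; adjusted p = 7.21e-07). The 2 groups lay apart in each of these genes. In the authors' deposited table ISG15 was 1.36-fold and USP18 1.31-fold higher, and HERC5 1.31-fold lower. HERC6, a relative of HERC5 beside it on chromosome 4, had 7.30 and 7.30 against 7.27 and 7.18 and was not called (-0.07 ± 0.04; adjusted p = 0.168).

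MX2, a GTPase that restricts HIV-1, rose from 8.68 and 8.65 to 8.90 and 8.87, a difference of 0.22 ± 0.05 (SE; limma, adjusted p = 2.96e-05), and was 1.45-fold higher in the authors' deposited table. Of the IFI genes, IFI35, a leucine-zipper protein that partners NMI, rose from 9.51 and 9.56 to 9.69 and 9.76 (0.19 ± 0.05; adjusted p = 0.000272). IFI44 had 5.86 and 5.87 in control and 5.76 and 5.70 in ARIEL shRNA libraries (-0.13 ± 0.03; adjusted p = 0.000393), a call lost without ARIEL shRNA replicate 2 (limma, adjusted p = 0.0535). The groups did not overlap in these 3 genes. In the authors' deposited test IFI44 was also lower, with a larger adjusted p of 0.0198. IFI6, an inhibitor of apoptosis, had 11.20 and 11.26 against 11.28 and 11.32, and IFI27 had 5.90 and 5.87 against 5.86 and 5.82; neither was called (adjusted p = 0.129 and 0.259).

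Of the transcription factors, STAT2 alone was called. STAT2 rose from 11.94 and 11.92 to 12.06 and 12.08 (0.14 ± 0.04, SE; limma, adjusted p = 0.000416) and was 1.20-fold higher in the authors' deposited table. IRF9, its partner, had 9.71 and 9.81 against 9.83 and 9.74 (adjusted p = 0.671). IRF1, which also serves interferon gamma, had 13.01 and 12.97 against 13.01 and 13.02 (adjusted p = 0.521), and IRF7, an amplifier of type I interferon genes, had 8.80 and 8.89 against 8.81 and 8.91 (adjusted p = 0.873). In IRF7 and IRF9 the ranges of the groups overlapped. IRF9 shares exon sequence on the same strand with another annotated gene.

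**Figure D2:**
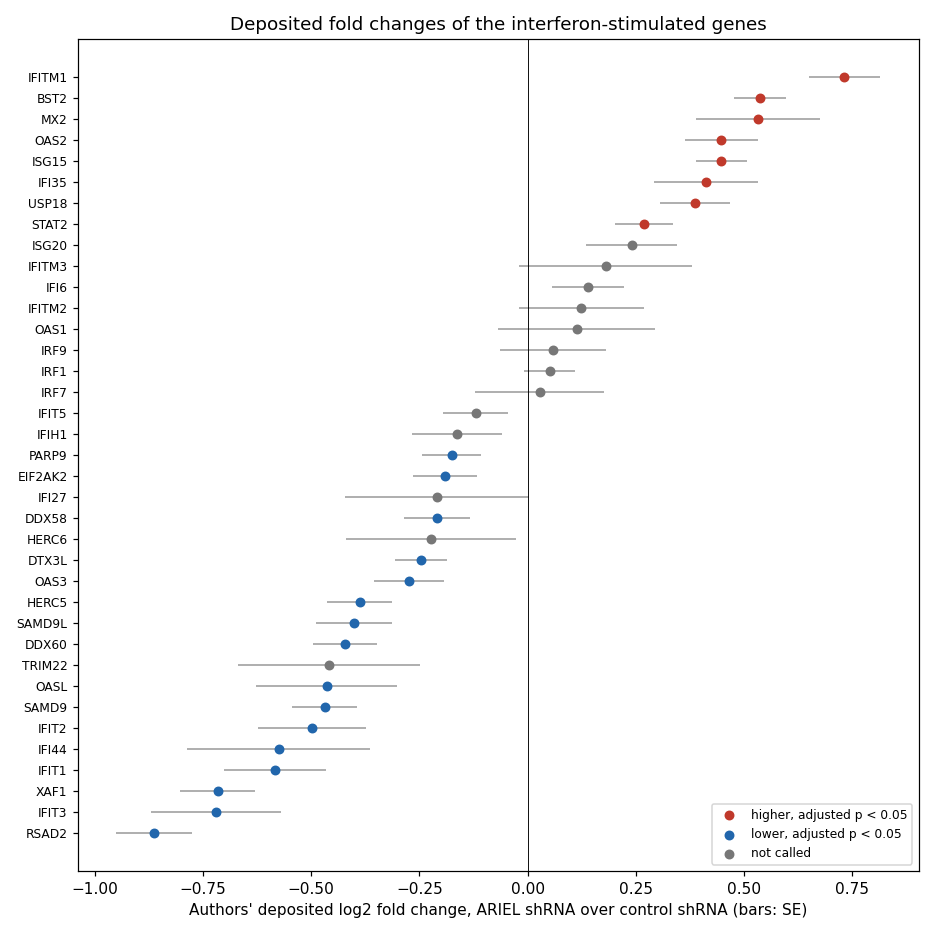
The authors' deposited log2 fold change of each of the 37 tested members (x axis; bars are the deposited standard errors), ordered by size and coloured by the deposited adjusted p at 0.05. Members run from RSAD2 at -0.86 to IFITM1 at 0.73, with 16 lower, 8 higher and 13 not called.

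The authors' deposited test gave nearly the same division. At an adjusted p under 0.05 it has 16 members lower and 8 higher of 37 with an adjusted p, against 19.3% and 20.1% of all 14551 genes with one (39.4% either way). These 16 and 8 were also called here in the same direction, and the calls not shared were ISG20 and TRIM22. Changes of at least 1.5-fold were deposited for 4 members, RSAD2, IFIT3, XAF1 and IFITM1, with IFIT1 just under that size (log2 fold change -0.5838), beside 5.73% of all genes.

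The direction of the members went with the base composition of their transcripts. Taking the longest GENCODE 29 transcript of each gene, the 9 higher members had a median GC content of 52.5% (47.0 to 63.4) and the 17 lower members one of 42.2% (36.0 to 54.3), with 48.8% over all genes tested. Of the lower members 15 lay under that median of all genes, and of the higher members 7 lay above it. Lower members also had longer transcripts, with a median of 4353 bases against 2129. Over the 37 members the difference followed GC content with a Pearson's r of 0.64 and a Spearman's rho of 0.68, against a rho of 0.40 over all genes tested that have a transcript match. The points share the same 4 libraries, so these are descriptions without a test, and the part of GC content in the calls was not tested. A like relation separated replicates: over the members rho was 0.67 for control replicate 2 minus control replicate 1 and 0.35 for ARIEL shRNA replicate 2 minus replicate 1. The replicate gaps of single members ran from -0.10 to 0.11 between control libraries and from -0.10 to 0.12 between ARIEL shRNA libraries.

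With the trend of each library with GC content and length removed over 12719 genes, 9 members were higher and 14 lower, against 27.6% and 24.9% of all genes in that fit (52.5% called either way). All 9 higher members and 13 of the 17 lower ones kept their call and direction. RSAD2 was then at -0.40, XAF1 at -0.34, IFIT3 at -0.29 and IFIT1 at -0.22, and IFITM1 at 0.33, OAS2 at 0.26, MX2 at 0.23 and BST2 at 0.23. ISG15, which has the highest GC content of the called members at 63.4%, went from 0.25 to 0.15, and SAMD9, which has the lowest at 36.0%, from -0.26 to -0.16. The calls of DDX58, EIF2AK2, PARP9 and TRIM22 were lost (limma, adjusted p = 0.147, 0.569, 0.240 and 0.0851), and IRF7, with 66.8% GC, was called lower at -0.098 (0.0289). The median of the members was then -0.04. Over the 37 members the rho with GC content after removal was 0.49.

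**Figure D3:**
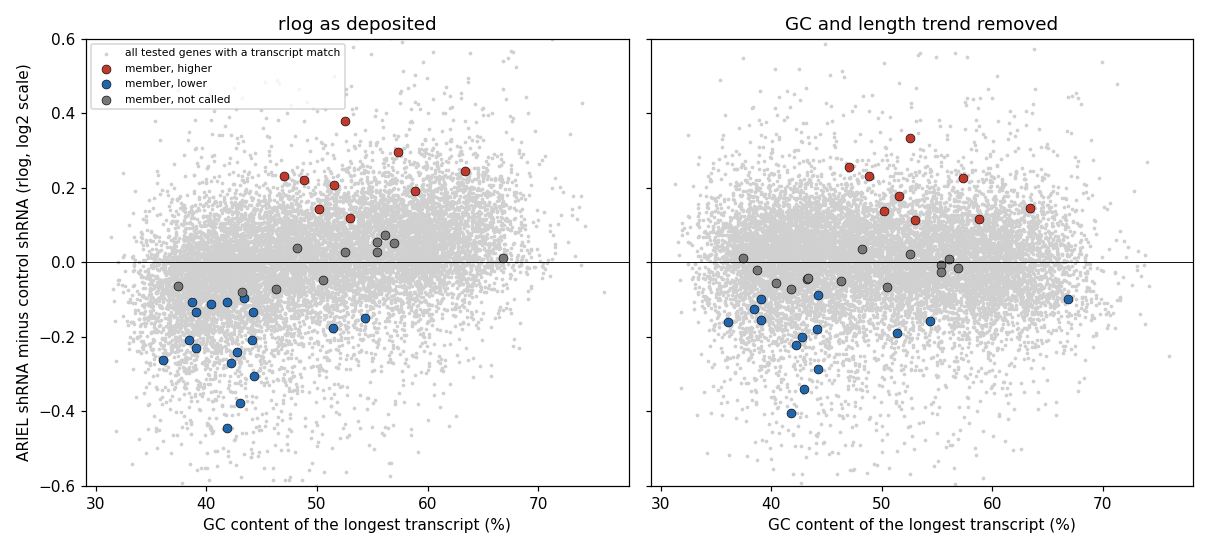
Difference between ARIEL shRNA and control shRNA (y axis, rlog on the log2 scale, drawn from -0.6 to 0.6 with genes beyond left out) against GC content of the longest transcript (x axis, percent), before (left) and after (right) removal of the trend with GC and length. Grey points are all tested genes with a transcript match and coloured points the 37 members; 13 of 17 lower and 9 of 9 higher members kept their call on the right.

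Earlier work on this table gave 1 pair of short 3′ UTR words whose carriers were lower across the transcriptome, and another pair whose carriers were higher. Members carry the first pair at near the share of all genes, which is no result about them. Of 37 tested members, 6 (16.2%) carry GATGACA or AGATGAC, against 17.5% of 12542 tested genes with a 3′ UTR. They are RSAD2, XAF1, SAMD9 and EIF2AK2, which fell, OAS2, which rose, and HERC6, which was not called. The other pair, whose carriers were higher across the transcriptome, is TGTTGTC and GTTGTCA. At least 1 of these 2 is present in 4 of 37 members, OAS2, OAS3, RSAD2 and EIF2AK2. Over all 12542 tested genes with a 3′ UTR it was 2380, a larger share. Of these 4 carriers 3 were lower, against the direction of their words, and 1, OAS2, was higher. IFIT1, IFIT2, IFIT3, SAMD9L, DDX60 and HERC5 fell and carry none of the 4 words of either pair. The words were chosen on all genes of these libraries, so a match in a member is no independent evidence.

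Upstream of these genes, both chains of the type I interferon receptor were lower. Among 11 genes for interferon receptors, Janus kinases and STATs 6 fell and none rose (median -0.08), beside 22.4% of all genes lower and 22.1% higher. IFNAR2 had 12.60 and 12.66 in control and 12.34 and 12.36 in ARIEL shRNA libraries (-0.28 ± 0.04, SE; limma, adjusted p = 1.60e-14), and IFNAR1 had 12.69 and 12.60 against 12.44 and 12.34 (-0.26 ± 0.04; adjusted p = 4.79e-12). The groups lay apart in each. The authors' deposited table has IFNAR2 1.43-fold and IFNAR1 1.38-fold lower. IFNLR1, the receptor of lambda interferons (-0.18 ± 0.04; adjusted p = 0.000187), and IFNGR2, a chain of the gamma receptor (-0.14 ± 0.04; adjusted p = 0.000774), also fell. IFNAR1, IFNAR2 and IFNGR2 all lie on chromosome 21, as does IL10RB (-0.05), which was not called. JAK1 (-0.02), TYK2 (-0.01) and IFNGR1 (0.03) were not called either. With the GC and length trend removed IFNAR2 was at -0.26 and IFNAR1 at -0.20, both called lower, while TYK2 was called lower (-0.07) and IFNGR1 higher (0.07).

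Interferon genes themselves gave nothing to test. Among 21 found, 18 were listed at 0 in every library, and the other three, IFNB1, IFNG and IFNL1, were under the minimum for testing. Of 10 negative regulators of interferon signalling 2 rose and 1 fell (median -0.02), shares at or under those of all genes (22.1% higher, 22.4% lower). SOCS1, an inhibitor of Janus kinases that interferon itself induces, had 7.75 and 7.81 in control and 8.12 and 8.24 in ARIEL shRNA libraries, a rise of 0.40 ± 0.05 (SE; limma, adjusted p = 2.22e-16), and was 2.13-fold higher in the authors' deposited table. Its transcript has 69.1% GC, and the rise was 0.28 with the trend removed. PIAS4, a SUMO ligase that acts on STATs, rose by 0.15 ± 0.04 (adjusted p = 0.000197), a call lost without ARIEL shRNA replicate 2 (limma, adjusted p = 0.0741). PTPN11, the phosphatase SHP2, differed by -0.15 ± 0.03 (adjusted p = 1.81e-05).

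Of 20 tested rows for nucleic acid sensing, 4 were higher and 6 lower (median -0.05), which is near the 22.1% and 22.4% of all genes and no result about the list. TMEM173, which encodes STING, the adaptor of cytosolic DNA sensing, had 11.82 and 11.83 in control and 11.60 and 11.60 in ARIEL shRNA libraries (-0.22 ± 0.04, SE; limma, adjusted p = 6.72e-08). TRIM25, a ubiquitin ligase that activates RIG-I, rose from 13.17 and 13.20 to 13.39 and 13.42 (0.22 ± 0.03; adjusted p = 7.04e-10). Both differences exceeded the replicate gaps and kept their calls once the trend with GC and length was taken out. The signalling proteins TANK (-0.15 ± 0.04; adjusted p = 0.000502) and TRAF6 (-0.13 ± 0.04; adjusted p = 0.00297) also fell. IRF3, which switches on interferon genes, rose by 0.11 ± 0.03 (adjusted p = 0.00423), and MAVS, the adaptor of RIG-I and MDA5, was not called (0.05 ± 0.03; adjusted p = 0.255). With the GC and length trend removed, MAVS was called higher (0.055; limma, adjusted p = 0.0422) and IRF3 was at 0.053 (0.0404). Without ARIEL shRNA replicate 2 the calls of IRF3 and TANK were lost (limma, adjusted p = 0.0547 and 0.0652), and that of IRF3 also without control shRNA replicate 1 (0.0552).

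A further list of interferon-stimulated genes outside the 39 also had calls in both directions, with 17 of 45 tested lower and 10 higher (median -0.03). Over all genes 22.4% were lower and 22.1% higher, so the share that was higher is that of all genes. SLFN5, a Schlafen family gene, had 12.83 and 12.82 in control and 12.27 and 12.26 in ARIEL shRNA libraries (-0.56 ± 0.03, SE; limma, adjusted p = 1.14e-54) and was 2.03-fold lower in the authors' deposited table. APOL6, an apolipoprotein L gene, had 13.01 and 13.0 against 12.58 and 12.56 (-0.44 ± 0.03; adjusted p = 8.27e-36). CMPK2, a mitochondrial nucleotide kinase gene beside RSAD2 on chromosome 2, had 12.36 and 12.35 against 12.03 and 12.04 (-0.32 ± 0.04; adjusted p = 2.20e-17), so both neighbours fell. NMI, whose protein partners IFI35, differed by -0.28 ± 0.04 (adjusted p = 6.56e-13), opposite to the rise of IFI35. All 4 of these genes kept their calls with the GC and length trend removed.

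**Figure D4:**
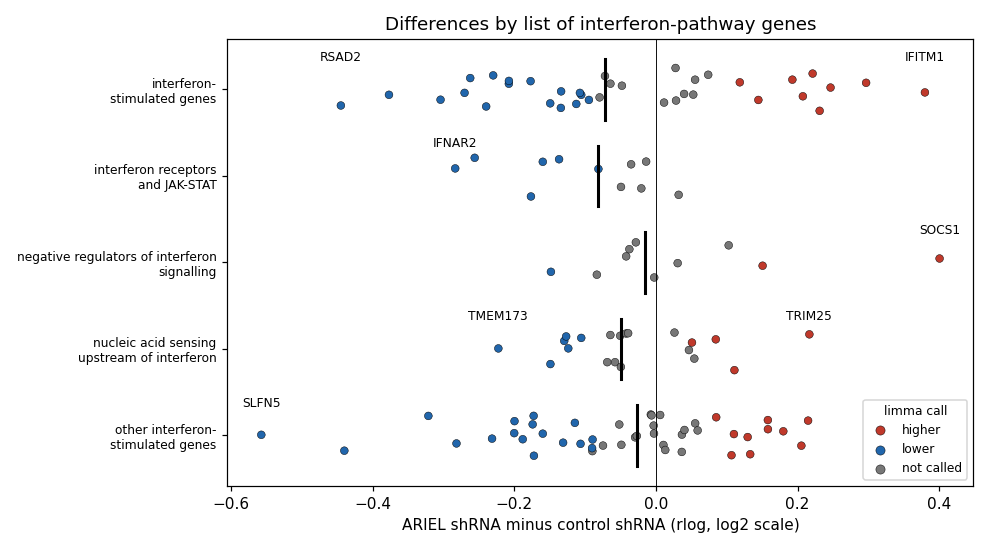
Difference between ARIEL shRNA and control shRNA (x axis, rlog on the log2 scale) for every tested gene of each list (rows; vertical place within a row carries no value), coloured by the limma call, with a black bar at the list's median. The receptor and JAK-STAT list has 6 lower and no higher genes, and SOCS1 lies at 0.40.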

How the data were processed

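RNA of 4 Jurkat libraries was read as strand-specific pairs, per the labels' protocols. Tools listed without roles are DESeq2 1.12.4, HTSeq 0.6.1 and STAR 2.5.2a, with build hg19, per the submitters' processing notes. The deposited columns are, per the file headers, rlog (log2 scale) of every library, then a log2 fold change, its error, a score, a p-value and an adjusted p. The score is the fold change over its SE, to within 5.98e-07. ERCC spike-in was dosed to the cell count, per the labels' protocols; the table holds 0 spike-in rows, and what the values were scaled to is not given in the sources used here. All libraries are at 0 in 4365 rows.

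The rlog values were used without a pseudocount. limma 3.58.1 (R 4.3.3; lmFit, eBayes with a trend on level) was fitted to the 14601 rows with a mean of at least log2 of 10; prior degrees of freedom were infinite and the median SE 0.04. The fit was tested on simulated data with independent noise of the fitted size and no trend with GC content. There, 26.9% of 67 planted differences of 0.1 and 100% of 67 of 0.25 were recovered. Planted changes were few among 14601 genes, whereas 44.4% of genes were called in the data. The adjusted p threshold was thus stricter there, and these rates do not carry over to the data. The smallest called difference of a member was 0.0947 in size, and differences near 0.1 or under it can still be missed. Trends with GC content and log length were removed by splines (5 degrees of freedom each) over 12719 genes with a GENCODE 29 transcript, matched by gene ID. Promoters are from RefSeq (GRCh38.p14), a build other than that of the files. Figures were drawn with Python 3.11.15 and matplotlib 3.10.9.

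The members, lists, tests and 3′ UTR words were chosen with earlier results of these data known. Named genes were all members, the 4 called genes with the smallest adjusted p of each pathway list, and JAK1, TYK2, IFNAR1, IFNAR2, IFNGR1, IFNGR2, IRF3 and MAVS, with XLOC_005968 and the marker TAL1 as checks; 1 gene that the rule also names is not reported here. Alternatives were the replicate block, other filters, no pooling or no trend of the spread, quantile normalization, trend removal, the deposited test and each library left out.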

Additional observations from a re-analysis of the deposited data

How the results depend on the processing

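With the replicate number as a block, 7426 genes were called in place of 6488, and the calls of the 26 members were the same; it changed no call of a member. The labels do not say that a number marks a shared culture or day. Deviations of same-numbered libraries correlated at 0.198 across genes, and at 0.0051 with the GC and length trend removed, and 2 pairs are too few to decide. No change of the filter, of the trend of the spread or of quantile normalization changed a member's call. Without pooling of the spread, limma called 0 genes, 0 members higher, 0 members lower and 0 pathway genes.

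The median difference of the members, -0.07, was -0.064 with no filter, -0.054 with quantile normalization, -0.045 with the GC and length trend removed, with or without the replicate block, and -0.18 on the deposited fold changes, which are on another scale. Leaving out 1 library at a time gave medians from -0.102 to -0.052, 8 to 9 members higher, 13 to 18 lower, 30 to 39 pathway genes called and 4225 to 6188 genes called over all, the fewest without ARIEL shRNA replicate 2. A further call, of IFIT5 as lower, appeared without control shRNA replicate 2.

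Reversals of sign were seen only in genes not called in the fit of all libraries. With the GC and length trend removed, with or without the replicate block, IFIT5 was at 0.011, IFITM2 at -0.0064, IFITM3 at -0.016, IRF7 at -0.098, IRF9 at -0.026 and JAK1 at 0.012. With 1 library left out, IFITM2 ran from -0.0018 to 0.11, IRF7 from -0.039 to 0.062, IRF9 from -0.021 to 0.077, JAK1 from -0.042 to 0.0009, TYK2 from -0.035 to 0.0075 and IFNGR1 from -0.021 to 0.085. The cause of these changes was not tested. Depth is unknown, so what counting error limits cannot be given.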

Other observations

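Guanylate-binding proteins, GTPases induced mainly by interferon gamma, also had calls in both directions. They were chosen for mention after their values were seen. GBP5 had 5.72 and 5.75 in control and 5.56 and 5.56 in ARIEL shRNA libraries, a difference of -0.17 ± 0.03 (SE; limma, adjusted p = 1.50e-06). GBP1, on the same chromosome 1, had 10.76 and 10.62 against 10.84 and 10.86, a rise of 0.16 ± 0.04 (limma, adjusted p = 0.00103). The control replicates of GBP1 lay apart (SD 0.096). With each gene's own variance, the unadjusted p was 0.147 for GBP1 and 0.0083 for GBP5 (limma). GBP5 is at a low level, where the SE can be too small. GBP2 (0.0059) and GBP3 (-0.09) were not called, and GBP4 was under the minimum for testing. UBE2L6, the enzyme that passes ISG15 to its ligases, rose from 12.49 and 12.48 to 12.66 and 12.68 (0.18 ± 0.03; limma, adjusted p = 1.84e-06), as ISG15 and USP18 did and HERC5 did not.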
